A study of Mus musculus with 6 samples.

Results

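The genes described here are those of MHC class II antigen presentation in tibialis anterior (TA) muscle of geriatric mice: Cd74, H2-Aa, H2-Ab1, H2-Eb1, H2-DMa, H2-DMb1 and Ciita. They were chosen by symbol, and all 7 of the 7 listed were found among the 16800 genes with TPM values and, by gene identifier, among the 45777 genes of the count table. TPM, the transcript abundance that the authors deposited, is scaled for transcript length and library size, so that levels of different genes can be compared. The mice were male C57BL/6J, labelled as 24 months old, and the study's text also gives somewhat older ages. The study asked which genes change in aged muscle under BML-260, the small molecule it uses to inhibit the phosphatase DUSP22. In the arms compared, 3 mice received vehicle (DMSO with Tween 80) and 3 received BML-260 at 5 mg/kg, both by intraperitoneal injection every day for 4 weeks, with 1 library of total RNA per mouse. None carried a transgene or deletion by the labels, and young or untreated mice were not analysed here.

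MHC class II molecules are heterodimers of an α and a β chain that display peptides from the endosomes to CD4+ T cells. The invariant chain, Cd74, fills the peptide groove of new dimers in the endoplasmic reticulum and guides them to the endosome. There proteases trim Cd74 to a short fragment, which the H2-DM heterodimer exchanges for a peptide. Transcription of these genes depends on CIITA, a coactivator that binds no DNA itself and docks on the RFX, NF-Y and CREB factors at the X and Y boxes of class II promoters. In muscle tissue, macrophages, dendritic cells and B cells are the known class II-positive cells, and fibers express little at rest.

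By the RefSeq gene table of GRCm38.p6, the same build as mm10, 5 of the 7 genes lie in the class II region of chromosome 17. These are H2-DMa at chr17:34119693-34139101, H2-DMb1 at chr17:34153191-34160229, H2-Ab1 at chr17:34263227-34269418, H2-Aa at chr17:34282744-34287823 on the reverse strand, and H2-Eb1 at chr17:34305867-34316674. Ciita and Cd74 lie on other chromosomes. Promoter sequence from RefSeq was at hand for 4 of the 7. The stretches from base -100 to base -31 before the start site of 3 of them are printed because they let the shared class II promoter letters be seen. They are written 5′ to 3′ on the strand of the gene, and positions count back from the start site.
H2-Aa, chr17:34287854-34287923, reverse strand: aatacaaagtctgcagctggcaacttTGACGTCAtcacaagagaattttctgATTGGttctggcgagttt
H2-Eb1, chr17:34305767-34305836, forward strand: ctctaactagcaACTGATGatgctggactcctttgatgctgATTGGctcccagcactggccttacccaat
H2-DMb1, chr17:34153091-34153160, forward strand: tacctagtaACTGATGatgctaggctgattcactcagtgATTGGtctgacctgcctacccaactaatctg
The capitals mark ATTGG, the core of the Y box, ACTGATG, a form of the X box core, and TGACG with its reverse complement CGTCA, the sides of a CRE site, which overlap in H2-Aa. ATTGG began at -48 in H2-Aa, at -59 in H2-Eb1 and at -61 in H2-DMb1. ACTGATG began at -88 in H2-Eb1 and at -91 in H2-DMb1, and TGACG at -74 in H2-Aa. A further CCAAT, the reverse complement of ATTGG, began at -35 in H2-Eb1 and is left in lower case.

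Single motifs of this length were common. Of 32851 promoter windows, each 250 bases before to 50 bases after a start site, 37.4% held ATTGG or CCAAT on either strand. TGACG or CGTCA was in 20.8%, and ACTGATG or CATCAGT in 3.19%. The textbook X box letters ACAGATG or CATCTGT were in 5.01%, and among the 3 promoters shown only H2-Aa held them, at -232 on the opposite strand. ACTGATG followed by ATTGG 15 to 30 bases further on the same strand was in 12 windows (0.0365%), among them H2-Eb1, H2-DMb1 and the class II gene H2-Eb2. All letters searched beyond the Y box core and the textbook X box were chosen after these sequences were seen, as was the spacing, so the shares describe the windows only. H2-DMa had 2 windows at alternative start sites, with ATTGG in 1 of them at -198.

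Within a library the 7 genes kept 1 order of TPM level in all 6 libraries: Cd74 highest, then H2-Aa, H2-Ab1, H2-Eb1, H2-DMb1, H2-DMa and Ciita. Mean levels over the 6 libraries were 39.3, 26.3, 16.1, 12.2, 2.24, 0.969 and 0.452 TPM in that order. Cd74 stood above 89.7% of the 16800 genes and Ciita above 17%. The spread between libraries was wide against the steps of this order, since H2-Aa reached 42.9 TPM in 1 library and Cd74 was as low as 23.3 TPM in another.

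None of the 7 genes passed the test with all 6 libraries, although the estimate was lower with BML-260 for every one. The counts went into edgeR's quasi-likelihood test after TMM scaling, a correction of library size for a few dominant genes. The adjusted p-values are Benjamini-Hochberg values over 16188 tested genes. At an adjusted p under 0.05, 0 of 7 genes were called, and the background was 0 of 16188 tested genes (0%), beside 966 genes at an unadjusted p under 0.05. At an unadjusted p under 0.05 with at least a 1.3-fold change, the nominal threshold below, again 0 of 7 were lower and 0 of 7 were higher, where 4.86% of all tested genes were lower and 0.896% were higher. The ranges of the groups in CPM (counts scaled for library size and by TMM) overlapped for all 7 genes, against 6.91% of tested genes that were lower without overlap. The median log2 fold change was -0.74 over the 7 genes and -0.0039 over all tested genes.

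The size of these errors depended on vehicle replicate 3. This library stands apart from the others of the series, with high levels of macrophage and neutrophil genes, and for most class II genes it was the vehicle library with the lowest level. In CPM, 5 of the 7 genes were lowest of all 6 libraries in vehicle replicate 3, and 1, H2-DMa, was highest there. Over all tested genes 32.1% were lowest and 31.4% highest in that library. The main test results below are therefore also given without it. That choice was made with the values known, and it leaves 2 vehicle libraries. For 6 of the 7 genes, all but H2-DMa, it removes the lowest vehicle value in CPM. A larger fold change of these 6 in that fit was therefore fixed in advance, and they are the 6 that passed in it. Without vehicle replicate 2 instead, 0 of 7 passed the nominal threshold. The log2 fold changes were then -0.32 for Cd74, -0.43 for H2-Aa, -0.50 for H2-Ab1 and -0.38 for H2-Eb1. Those of H2-DMb1, H2-DMa and Ciita were -0.65, -0.52 and 0.22. Without vehicle replicate 3, 6 of 7 genes passed the nominal threshold in the lower direction, against 2.92% of 16502 genes tested then. The share of all genes that passed in the higher direction was 1.06%, and 0 of the 7 did. At an adjusted p under 0.05, 0 of 7 were called, against 0.0364% of all genes (6 genes), and the median of the 7 log2 fold changes was -1.09.

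**Figure D1:**
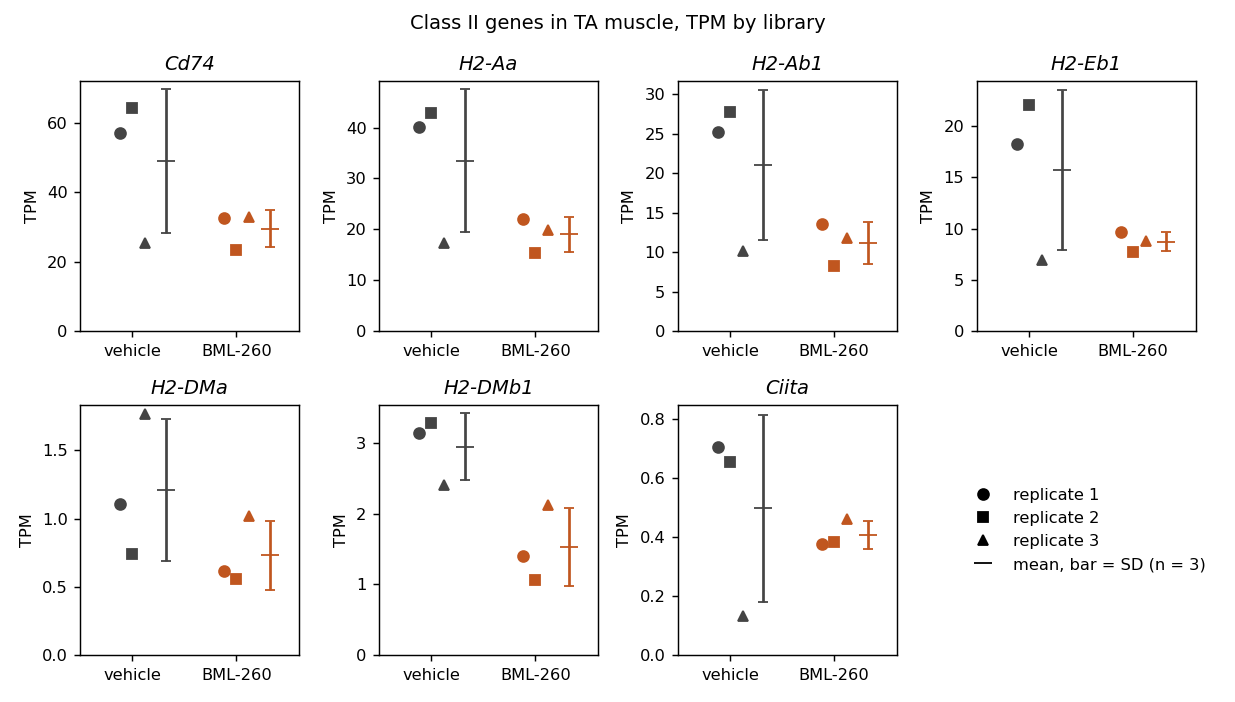
TPM (linear axis from 0, a separate scale for each gene) of the 7 class II genes in each vehicle and BML-260 library; marker shapes are replicates 1, 2 and 3, and the bar beside them is the mean with its SD (n = 3). For Cd74, H2-Aa, H2-Ab1, H2-Eb1 and Ciita, vehicle replicates 1 and 2 lie above all BML-260 libraries and vehicle replicate 3 lies below or among them.

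Cd74, the invariant chain, lies at chr18:60803849-60812652. It had 57.1, 64.4 and 25.4 TPM in vehicle replicates 1, 2 and 3, and 32.5, 23.3 and 32.8 TPM in BML-260 replicates 1, 2 and 3. The first pair of vehicle libraries was above every BML-260 library, and vehicle replicate 3 lay within the BML-260 range. The means were 49.0 ± 20.7 TPM with vehicle and 29.6 ± 5.4 TPM with BML-260 (SD, n = 3 each). The log2 fold change was -0.66 (SE 0.42, adjusted p = 0.788), and without vehicle replicate 3 it was -1.05 (SE 0.19, adjusted p = 0.108). The underlying counts were 2169, 1946 and 893 with vehicle and 1522, 826 and 944 with BML-260, so that counting error was small beside the spread between mice.

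H2-Aa and H2-Ab1 encode the α and β chains of I-A, the class II molecule that C57BL/6 mice make. For H2-Aa the vehicle libraries held 40.2, 42.9 and 17.3 TPM and the BML-260 libraries 22.1, 15.3 and 19.8 TPM. H2-Ab1 stood at 25.2, 27.7 and 10.1 TPM with vehicle and at 13.5, 8.2 and 11.8 TPM with BML-260. As for Cd74, vehicle replicates 1 and 2 were above every BML-260 library for both chains, with vehicle replicate 3 inside the BML-260 range in TPM. In CPM, vehicle replicate 3 was below every BML-260 library for Cd74 and both chains. The log2 fold change of H2-Aa was -0.74 (SE 0.42, adjusted p = 0.788), and -1.13 without vehicle replicate 3 (SE 0.18, adjusted p = 0.0751). That of H2-Ab1 was -0.84 (SE 0.46, adjusted p = 0.788), and -1.25 without that library (SE 0.22, adjusted p = 0.106).

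H2-Eb1 encodes the β chain of I-E, whose α chain gene H2-Ea is known to be silent in C57BL/6 mice because its promoter is deleted. H2-Ea had 0 counts in each of the 6 libraries, where a count of 0 allows up to 3 counts, or between 0.0526 and 0.0759 CPM before TMM scaling, for counting error only. Despite the missing partner, H2-Eb1 was measured at 18.2, 22.0 and 6.94 TPM with vehicle and at 9.62, 7.75 and 8.76 TPM with BML-260. Here vehicle replicate 3 was the lowest of the 6 libraries, and the other vehicle libraries were the highest. Its log2 fold change was -0.79 (SE 0.47, adjusted p = 0.788), and -1.21 without vehicle replicate 3 (SE 0.17, adjusted p = 0.0569), the smallest adjusted p of the 7 genes in that fit. The paralog H2-Eb2, whose promoter holds the same pair of motifs, had 10 counts in BML-260 replicate 1 and 0 in the other 5 libraries.

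H2-DMb1 and H2-DMa encode the chains of the peptide-exchange factor H2-DM, and both were below the classical chains in every library. H2-DMb1 had 3.15, 3.29 and 2.41 TPM with vehicle and 1.4, 1.06 and 2.13 TPM with BML-260. It was the one member whose groups did not overlap in TPM, while in CPM vehicle replicate 3 (1.36) was below BML-260 replicate 3 (1.64). Its log2 fold change was -0.84 (SE 0.38, adjusted p = 0.788), and -1.09 without vehicle replicate 3 (SE 0.32, adjusted p = 0.514). With all 6 libraries it missed the nominal threshold in the edgeR fit described here, but passed it in edgeR with no filter on low counts, with DESeq2's Wald test, with voom and quality weights, and with limma on log2(TPM + 1) and on log2(TPM + 0.1). Of the 50-base words in its longest transcript, 27.2% (369 of 1355) also occur in its neighbor and paralog H2-DMb2, so reads could have been split between these genes. H2-DMb2 itself had between 10 and 28 counts per library.

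H2-DMa had the library order least like that of the others. Vehicle libraries held 1.11, 0.742 and 1.77 TPM and BML-260 libraries 0.612, 0.557 and 1.02 TPM. The highest value was in vehicle replicate 3, where the classical chains were low, and the groups overlapped. In CPM the vehicle libraries were nearly level, at 2.69, 2.75 and 2.93, beside 1.93, 1.17 and 2.80 with BML-260. How far vehicle replicate 3 stands off for H2-DMa thus depends on the scale. Its log2 fold change was -0.51 (SE 0.32, adjusted p = 0.788), and -0.47 without vehicle replicate 3 (SE 0.33, adjusted p = 1.0), so that it alone of the 7 stayed short of the nominal threshold in that fit. The RefSeq span of H2-DMa overlaps 3122 bases of Brd2, a chromatin reader on the opposite strand with mean CPM values of 58.6 and 56.1 in the groups, against 2.79 and 1.97 for H2-DMa. Since the strand setting of the counting is not given in the sources used here, the values of H2-DMa are uncertain.

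Ciita, the transactivator of the whole group, lies at chr16:10480014-10531064. Its level was low, at 0.705, 0.653 and 0.133 TPM with vehicle and 0.374, 0.383 and 0.461 TPM with BML-260. Its counts were 163, 136 and 32 with vehicle and 120, 94 and 93 with BML-260. The first pair of vehicle libraries was again above every BML-260 library, but vehicle replicate 3 was below all of them, and the mean TPM of the other vehicle libraries was 5.09 times its level. Between the groups the log2 fold change was -0.17 (SE 0.59, adjusted p = 0.945). Without vehicle replicate 3 it was -0.67 (SE 0.23, adjusted p = 0.710), and it turned to 0.0972 without vehicle replicate 1 and to 0.220 without vehicle replicate 2. No direction can therefore be given for Ciita. Its span overlaps 858 bases of Dexi and 15932 bases of a long noncoding RNA, and the strand limit named for H2-DMa holds for it too.

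**Figure D2:**
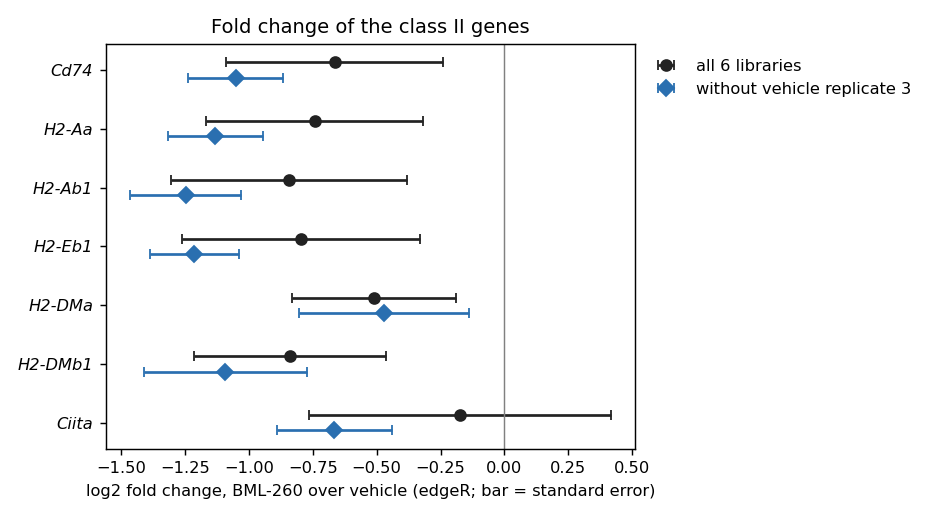
Log2 fold change of BML-260 over vehicle for each of the 7 class II genes from edgeR (horizontal axis; bars are 1 standard error), with all 6 libraries (circles) and without vehicle replicate 3 (diamonds). All estimates lie below 0, and 6 of the 7, all but H2-DMa, lie further from 0 with smaller errors once vehicle replicate 3 is left out. Fits that leave out another library are not drawn.

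The classical chains and Cd74 kept nearly fixed ratios while their levels varied. H2-Aa over H2-Ab1 was between 1.55 and 1.87 in TPM over the 6 libraries, and Cd74 over H2-Aa between 1.42 and 1.66. H2-Eb1 over H2-Ab1 ran from 0.687 to 0.944, the highest value being that of BML-260 replicate 2. The highest and lowest values of these ratios were within a factor of 1.37, and the groups overlapped for each. Against this, H2-DMb1 over H2-DMa ran from 1.36 in vehicle replicate 3 to 4.43 in vehicle replicate 2, a factor of 3.26. Cd74 over Ciita was 81.0, 98.7 and 191 with vehicle and 86.9, 60.9 and 71.2 with BML-260, so that in vehicle replicate 3 the transactivator was lower than its targets would give at the ratio of the other libraries.

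As a description over the 6 libraries, Pearson's r of log2 CPM with the mean score of Cd74, H2-Aa, H2-Ab1 and H2-Eb1 was 0.828 for Ciita, 0.823 for H2-DMb1 and 0.322 for H2-DMa. These 4 genes form the score, and among them pairwise r was between 0.980 and 0.998. The libraries share the split of vehicle replicate 3 from the other vehicle libraries, which weighs on every such value. The 10 tested genes outside the members with the highest r were Farp2 (0.979), Sfxn3, Rwdd2b, Ifi27, Lrmda, 9930111J21Rik1, Zbtb25, Mob3c, Dupd1 and Mfhas1 (0.958). Their log2 fold changes were between -0.26 and -0.096 except for Dupd1 at -1.01 (SE 0.60, adjusted p = 0.788), and none passed the nominal threshold. Dupd1 had 55.8, 62.5 and 8.99 CPM with vehicle and 29.5, 18.9 and 14.9 CPM with BML-260. Without vehicle replicate 3 it passed (log2 fold change -1.48, adjusted p = 0.0593), where 2.92% of all genes were lower. Choice by r with the class II score favors a low value in that library, so this pass is no separate result. That fit is given for only this 1 of the 10 genes. Ifi27 is known as an interferon-inducible gene, and its CPM values lay between 16.1 and 22.1.

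**Figure D3:**
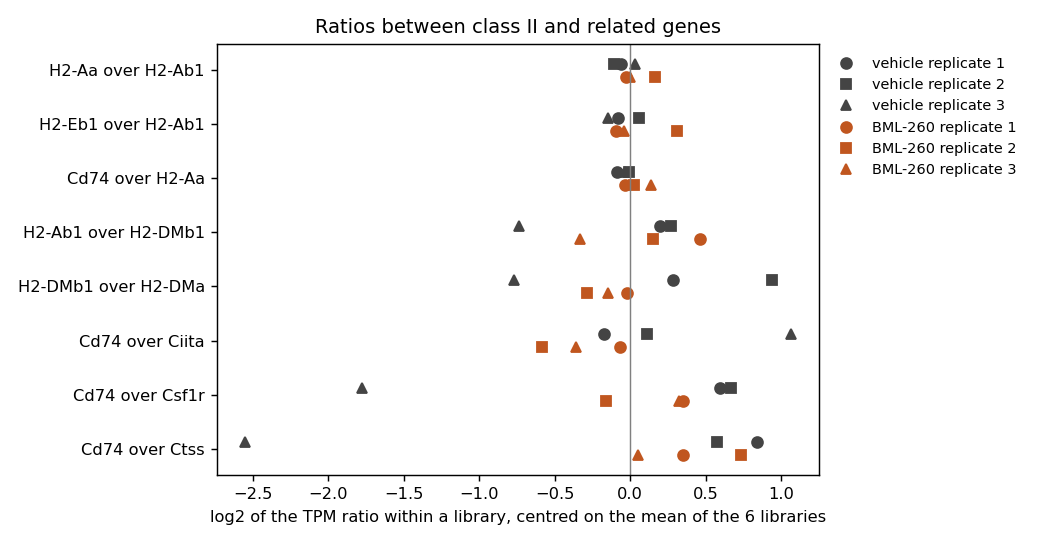
TPM ratios within each library (log2, centred on the mean of the 6 libraries for each ratio; 0 is that mean), by group (color) and replicate (shape). The upper 3 ratios, between Cd74 and the classical chains, stay close together, while vehicle replicate 3 is the most distant library in the ratios of Cd74 to Ciita, Csf1r and Ctss.

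Among 14 other genes of class II loading and turnover, 11 were tested, 3 were lower at the nominal threshold and 0 were higher. Over all genes in this fit the shares were 4.86% lower and 0.896% higher. The list median was -0.41. The 3 lower genes were Ctss, Lgmn and Marchf1. Ctss, the cathepsin that makes the last cuts in Cd74 in macrophages and dendritic cells, had 11.8, 16.1 and 55.5 TPM with vehicle and 9.48, 5.22 and 11.8 TPM with BML-260 (log2 fold change -1.34, SE 0.47, adjusted p = 0.782). Its highest level was in vehicle replicate 3, the opposite of its substrate, and Cd74 over Ctss was 4.82, 4.00 and 0.458 with vehicle and 3.43, 4.48 and 2.79 with BML-260. Without that library Ctss was the only 1 of the 11 past the threshold (log2 fold change -0.66), where 2.92% of all genes were lower.

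Lgmn, an endosomal asparaginyl endopeptidase, stood at 24.4, 22.4 and 53.7 TPM with vehicle against 20.8, 18.3 and 20.3 TPM with BML-260 (log2 fold change -0.52, SE 0.21, adjusted p = 0.788). Marchf1, the ubiquitin ligase that removes class II from the cell surface, was at 0.688, 0.592 and 2.39 TPM and at 0.558, 0.368 and 0.334 TPM (log2 fold change -1.21, SE 0.40, adjusted p = 0.754). Vehicle replicate 3 was the highest library for both, and without it neither passed the threshold. The other tested genes of this list did not pass: Ctsl (log2 fold change -0.77), Ctsb (-0.11), Ctsd (-0.22), the thiol reductase Ifi30 (-0.42), the Cd74 fragment protease Sppl2a (0.32), Marchf8 (0.091), H2-DMb2 (-0.41) and H2-Ob (0.67). H2-Oa, the α chain of the H2-DM inhibitor H2-O, had 6 counts in vehicle replicate 2, 2 in BML-260 replicate 3 and 0 elsewhere, and H2-Ob had between 4 and 20 counts.

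Of 19 factors that act at class II promoters or induce CIITA, 18 were tested, 1 was lower at the nominal threshold and 0 were higher. The shares over all genes were 4.86% lower and 0.896% higher at this threshold. The list median was 0.020. The subunits of RFX did not pass (Rfx5 -0.059, Rfxap 0.36, Rfxank 0.14), nor did those of NF-Y (Nfya -0.030, Nfyb 0.15, Nfyc 0.070) or Creb1 (0.11). Among genes of the interferon-γ pathway, log2 fold changes were -0.25 for Ifngr1, 0.50 for Ifngr2, 0.16 for Jak1, 0.25 for Jak2 and -0.42 for Irf1, none of them past the threshold. Ifng itself was counted 2 times in vehicle replicate 2 and not in the other libraries. Spi1, the myeloid factor PU.1, passed: it had 1.61, 1.77 and 4.33 TPM with vehicle and 0.82, 1.07 and 1.04 TPM with BML-260, without overlap (log2 fold change -1.14, SE 0.33, adjusted p = 0.699). Without vehicle replicate 3 Spi1 still passed the nominal threshold, with a log2 fold change of -0.78. In CPM, 3 of the 18 genes were lower without overlap (Spi1, Socs1 and Irf4) and 1 was higher without overlap, Rfxap, against 6.91% and 5.23% of all tested genes. Rfxap had 8.83, 7.87 and 5.53 CPM with vehicle and 9.08, 10.5 and 8.97 CPM with BML-260. Socs1, an inhibitor of JAK signaling, had only 5 to 15 counts per library and did not pass the nominal threshold (log2 fold change -1.08).

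The costimulatory list had 5 tested genes, with a list median of 0.080. Of these, Cd86 was lower at the threshold and none was higher, against 4.86% and 0.896% of all tested genes. Cd86, which gives T cells their second signal beside class II, had 0.629, 0.961 and 1.89 TPM with vehicle and 0.374, 0.336 and 0.428 TPM with BML-260 (log2 fold change -1.41, SE 0.37, adjusted p = 0.631). The BML-260 libraries were all below the vehicle libraries, and without vehicle replicate 3 Cd86 still passed, with a log2 fold change of -1.15. All 5 genes of these 3 lists that passed the threshold, Ctss, Lgmn, Marchf1, Spi1 and Cd86, were highest in vehicle replicate 3.

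Of the class II-positive cell types, macrophages had the marker list that moved most with the groups. Over the 6 libraries, r with the class II score ran from -0.713 (Mertk) to 0.576 (Cx3cr1) for macrophage markers, with Csf1r at -0.0116. For dendritic cell markers it ran from -0.499 (Cd209a) to 0.927 (Flt3, with 6 to 16 counts). The B cell marker Cd79b was at 0.758, with 5 to 20 counts. In bulk tissue fewer cells of a type and less RNA per cell cannot be told apart. Of 17 macrophage markers, 10 were lower at the nominal threshold and 0 higher (median log2 fold change -1.08), against 4.86% and 0.896% of all tested genes. Without vehicle replicate 3 they were 9 lower and 0 higher (median -0.61), against 2.92% and 1.06% of all genes. Their summed level was 152, 154 and 645 TPM with vehicle and 107, 92.8 and 116 TPM with BML-260. Lyz2 was the largest single part of this sum, at 74.0, 78.8 and 354 TPM with vehicle and 52.4, 45.0 and 58.9 TPM with BML-260. The neutrophil markers summed to 165, 24.0 and 806 TPM with vehicle and to 7.53, 6.95 and 12.2 TPM with BML-260. The sum of Cd74, H2-Aa, H2-Ab1 and H2-Eb1 was 141, 157 and 59.8 TPM with vehicle and 77.6, 54.6 and 73.2 TPM with BML-260. Vehicle replicate 3 thus had the highest macrophage sum of the 6 libraries and a class II sum within the BML-260 range. The part of macrophage content in the class II levels was not tested. The class II sum over the macrophage sum was 0.927, 1.02 and 0.0927 with vehicle and 0.729, 0.588 and 0.633 with BML-260, which overlap, with the BML-260 libraries below vehicle replicates 1 and 2.

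**Figure D4:**
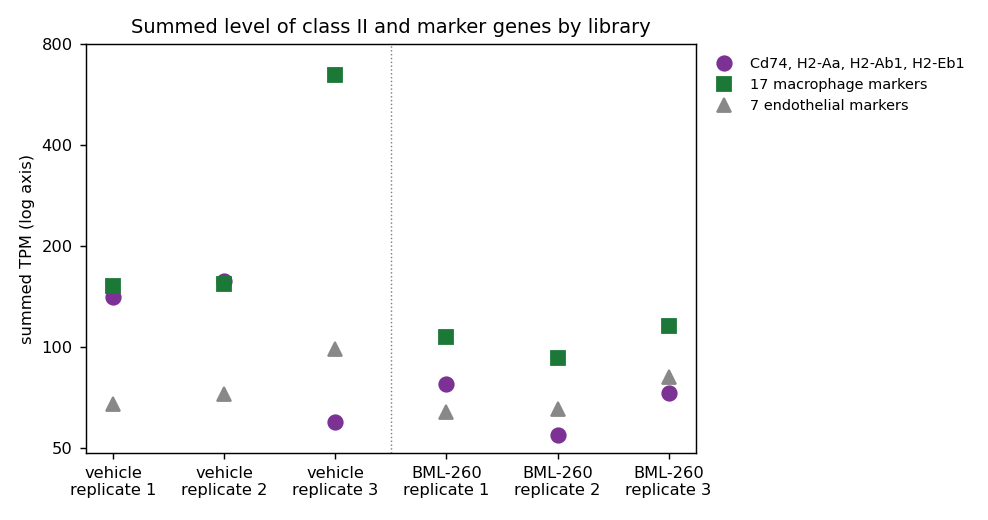
Summed TPM (log axis) of Cd74, H2-Aa, H2-Ab1 and H2-Eb1 (circles), of 17 macrophage markers (squares) and of 7 endothelial markers (triangles) in each of the 6 libraries; the dotted line separates vehicle from BML-260. In vehicle replicate 3 the macrophage sum is 645 TPM while the class II sum is 59.8 TPM, whereas in vehicle replicates 1 and 2 the sums lie side by side.

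Among single markers, Adgre1 (F4/80) had 3.88, 3.63 and 5.71 TPM with vehicle and 2.01, 1.29 and 2.19 TPM with BML-260 (log2 fold change -1.08, SE 0.23, adjusted p = 0.585). Csf1r, the receptor for the macrophage growth factor CSF1, had 7.59, 8.16 and 17.6 TPM and 5.12, 5.24 and 5.28 TPM (log2 fold change -0.86, SE 0.20, adjusted p = 0.598). Ptprc (CD45), the marker of all leukocytes, had 2.71, 3.16 and 6.73 TPM and 1.74, 2.09 and 1.45 TPM (log2 fold change -0.95, SE 0.24, adjusted p = 0.631). The groups did not overlap for these 3 genes, in TPM or in CPM, and all 3 passed the nominal threshold. Without vehicle replicate 3 they passed it too, with log2 fold changes of -1.05 for Adgre1, -0.61 for Csf1r and -0.69 for Ptprc. Other macrophage markers differed from these. Cd68 had 8.08, 2.02 and 14.2 TPM with vehicle and 4.04, 7.83 and 10.4 TPM with BML-260 (log2 fold change 0.0018). The groups overlapped in CPM also for Fcgr1, Lyve1, Cx3cr1, Mertk and Folr2. Without vehicle replicate 3, 14 of the 17 estimates were lower and 3 higher, for Cd68 (0.39), Lyve1 (0.37) and Mertk (0.23). Cd74 over Csf1r was 7.52 and 7.90 in vehicle replicates 1 and 2, 1.45 in vehicle replicate 3, and 6.35, 4.46 and 6.23 with BML-260.

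Of 10 dendritic cell markers, 6 were tested and 1 was lower, Clec10a, which macrophages also express (log2 fold change -1.47). For this count and those that follow, 4.86% of all tested genes were lower and 0.896% higher. The summed TPM of the dendritic cell markers was 7.52, 6.38 and 17.6 with vehicle and 5.81, 5.02 and 7.33 with BML-260. Zbtb46, a factor of classical dendritic cells, had 3.44, 3.49 and 4.02 TPM with vehicle and 3.12, 2.77 and 4.27 TPM with BML-260 and did not pass (log2 fold change -0.00097). Itgax (CD11c) was counted 32, 36 and 62 times with vehicle and 43, 29 and 23 times with BML-260. Only 1 of 7 B cell markers had enough counts to be tested, Cd79b, which did not pass (log2 fold change 0.18). Cd79a had counts of 3, 0 and 0 with vehicle and 11, 3 and 0 with BML-260. No T cell marker of 8 was tested, and Cd3e had between 0 and 8 counts. All 6 tested of 7 neutrophil markers were lower at the threshold (median log2 fold change -4.00), in cells not known for class II, and 5 of the 6 without vehicle replicate 3 (median -3.01). Of the 7 endothelial markers 0 passed, with a summed level of 67.6, 72.3 and 99.0 TPM with vehicle and 63.9, 65.4 and 81.3 TPM with BML-260. Of 6 fibroblast markers 1 was lower (Col1a1, log2 fold change -0.43), and of 8 skeletal muscle markers 0 passed, with Acta1, the skeletal actin, at 19000 TPM or more in every library. Without vehicle replicate 3, Clec10a was again the 1 dendritic cell marker that passed, Col3a1 passed in place of Col1a1, and the endothelial and muscle markers again gave 0. In that fit 2.92% of all genes were lower at the threshold.

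Along chromosome 17, the span from H2-Oa to H2-Ea (chr17:34092379-34344645, 252267 bases) holds 16 annotated genes, of which 12 were tested. The 7 of these that are not members included the class I antigen processing genes Tap1, Tap2, Psmb8 and Psmb9, which sit among the class II genes. Psmb8, an immunoproteasome subunit, had a log2 fold change of -0.62 (SE 0.20, adjusted p = 0.733) without overlap in CPM. Tap1, a subunit of the peptide transporter for class I, stood at -0.75 (SE 0.33, adjusted p = 0.788). These 2 of the 7 neighbors were lower at the nominal threshold with all libraries, against 4.86% of all tested genes. Tap2 (-0.29), Psmb9 (-0.27) and Brd2 (-0.064) did not pass. The 7 neighbors had a median of -0.29 and ran from -0.75 to 0.67, and 6 of the 7 estimates were lower. Without vehicle replicate 3, Psmb8 alone of the 7 passed the nominal threshold (log2 fold change -0.51), where 2.92% of all genes were lower, and the median was -0.22. These neighbors were looked at after their values were known.

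The libraries held between 39522890 and 56998875 counts, with vehicle and BML-260 overlapping in depth, and TMM factors were between 0.914 and 1.20, the highest in vehicle replicate 3. With TPM in place of TMM-scaled counts, that library was 2.39 times below the mean of the other vehicle libraries for Cd74, and 3.44 times below it in CPM, so that the scale changes how far it stands off, not the side.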

How the data were processed

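Total RNA of TA muscle was made into stranded libraries. The submitters' processing notes name Trimmomatic 0.38, StringTie 2.1.3b, HISAT2 2.1.0 and, beside it, Bowtie2 2.3.4.1, with the build mm10. The authors deposited raw counts per gene and TPM per library. How counting used strand or multi-mapped reads is not given in the sources used here.

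Counts were tested in R 4.3.3 with edgeR 4.0.16 (filterByExpr, TMM, quasi-likelihood F-test, Benjamini-Hochberg over all tested genes). The standard error is the log2 fold change divided by the square root of F. DESeq2 1.42.0, limma 3.58.1 (voom with quality weights, log2(TPM + 1) and log2(TPM + 0.1)), apeglm 1.24.0, other normalizations and filters, a replicate block and each library left out were alternatives. Sequences, names and positions are from RefSeq (GRCm38.p6), and 50-base words from GENCODE transcripts.

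The members and lists were chosen with earlier results of these data known. Named were the members, the loading and promoter factor genes, the defining markers and those at p under 0.05, and the 10 genes most correlated with Cd74, H2-Aa, H2-Ab1 and H2-Eb1. Chosen after values were seen were Cd86, Zbtb46, Cd79b, Col3a1, Acta1, Cd68, Fcgr1, Lyve1, Cx3cr1, Mertk, Folr2, Flt3, Cd209a and the chromosome 17 neighbors. The value of 1 gene of these lists is not reported here. Labels do not say whether mice shared a cage or litter, so p-values measure the spread between these libraries.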

Additional observations from a re-analysis of the deposited data

How the results depend on the processing

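No class II gene had an adjusted p under 0.05 in any alternative run. The count of the 7 genes past p under 0.05 and 1.3-fold was 0 with all libraries, 1 with no filter on low counts, 1 with DESeq2, 1 with limma on log2(TPM + 1), 1 with limma on log2(TPM + 0.1) and 5 with voom and quality weights, and it was 0 to 6 when a library was left out (6 without vehicle replicate 3, 2 without BML-260 replicate 3). Beside these, 1021 of all 16188 genes passed with DESeq2 and 890 of 16188 with voom and quality weights. With limma on log2(TPM + 0.1), 692 of 16800 passed. The totals were 657 of 16502 without vehicle replicate 3 and 656 of 16765 without BML-260 replicate 3, and further totals follow below. The median log2 fold change of the 7 was -1.09 to -0.433 with a library left out, and -0.00122 after apeglm shrinkage. The count over the loading, promoter factor and costimulation lists, 5 with all libraries, was 2 with limma on log2(TPM + 1), and 2 to 9 with a library left out (9 without vehicle replicate 1, 8 without vehicle replicate 2, 3 without vehicle replicate 3, 3 without BML-260 replicate 3 and 2 without BML-260 replicate 2). Of all genes, 2223 of 16719 passed without vehicle replicate 1, 1207 of 16719 without vehicle replicate 2 and 503 of 16767 without BML-260 replicate 2. Macrophage markers past the threshold numbered 6 without BML-260 replicate 2. Ciita turned in sign, to 0.136 with the replicate block and to between -0.666 and 0.220 with a library left out, and the cause was not tested. The other 6 genes kept the lower direction in every alternative. With the block, 0 of the 7 genes passed. Same-numbered libraries deviated together with r of 0.162, 0.0541 and 0.110 for numbers 1, 2 and 3, not all over 0.1, so the numbers were not taken as pairs, although every library correlated best with its own number. Over all genes, 931 passed the threshold, against 1416 with no filter, 446 with limma on log2(TPM + 1) and 503 to 2223 with a library left out. At an adjusted p under 0.05 DESeq2 called 95 genes and edgeR 0, and 0 to 9 with a library left out. TPM moved the median of all genes by -0.0892 (pseudocount 1) and -0.136 (0.1). The ratio of TPM means, as a median over the 7 genes, was 0.570 and 0.475 to 0.663 with a library left out. Genes with few counts, such as H2-Oa, H2-Ob and Ifng, allow no statement on change at this depth.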
